A study of Mus musculus with 8 samples.

Results

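The regions described here are the wide members of a single list of regions deposited with a mouse bisulfite sequencing study. They were chosen by width and score: a region had to lie on chromosomes 1 to 19, span 2000 bp or more and carry a score under 5000, and the Hox gene clusters and a segment of chromosome 4 were left out. The rule kept 2106 of 220894 regions, or 0.953% of the list, and these spanned 5370 kb, or 4.52% of its summed width. Because width and score chose the members, both are given below as a description with no test.

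The study captured genomic DNA of 8 cell lines with Agilent's SureSelect XT kit for mouse methylation sequencing (Methyl-Seq), which pulls down preselected genomic segments for bisulfite sequencing. There were 4 tumour lines with mutant IDH, from mice whose genotype included N::TVA, Cdkn2alox/lox and Atrxlox/lox, and 2 tumour lines with wild-type IDH, labelled RAS glioma, from mice with N::TVA and Cdkn2alox/lox. There was also 1 immortalized astrocyte line with wild-type IDH and exogenous wild-type IDH1 (IWT-PDGFA) and 1 without it (PDGFA), both from mice of the first genotype. All donors had a mixed C57Bl/6, 129 and FVB/n background, and every line shared the N::TVA allele and floxed Cdkn2a. The genotype of the mice, Atrx included, therefore separated the tumour lines in the same way as IDH. The sources used here do not say how the floxed alleles were recombined or how old the mice were. The list gives 1 pooled score per region and no value of any line, so IDH mutant and wild-type lines were not compared, no value has a replicate error, and the depth of each line is unknown. A list of DNA positions holds no expression values, so the labelled cell types were not checked against markers.

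In mammalian genomes, DNA methylation sits mainly on cytosines that precede a guanine, called CpG sites. These sites are rare over most of the genome and dense in CpG islands, which mark the promoters of most widely expressed genes and of many developmental regulators and are usually unmethylated. The flanks of islands, called shores, extend a short way to both sides and vary more in methylation between cell types and tumours. Capture kits for methylation sequencing are built around islands, shores, promoters and other regulatory sites, and no target list was used here, so the design of the kit and the reach of the reads cannot be told apart as sources of width.

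Sequence shows what a wide region holds at a gene start. The 6 promoters below lie in the 6 widest members that hold a whole promoter of a protein-coding gene in the RefSeq table used (GRCm38.p6, the assembly named mm10), leaving out genes with predicted symbols. For each, the 250 bases before the annotated start are printed 5′ to 3′ along the strand of the gene, with every CpG in capitals. Nfs1 makes the cysteine desulfurase of iron-sulfur cluster assembly. Its promoter lies on the minus strand at chr2:156144187-156144436, in a member of 4660 bp that also holds the start of Romo1 on the opposite strand. Myl6, a light chain of non-muscle and smooth muscle myosin, has its promoter at chr10:128493887-128494136 on the minus strand, in a member of 4620 bp. Rpl31, a protein of the large ribosomal subunit, follows at chr1:39367601-39367850 on the plus strand, in a member of 4320 bp. Lpcat2, a lysophospholipid acyltransferase, has its promoter at chr8:92855083-92855332 on the plus strand, in 4190 bp. The promoter of Rtn1, a reticulon of the endoplasmic reticulum, is at chr12:72235747-72235996 on the minus strand, in 4050 bp, and that of Abhd2, a lipid hydrolase, at chr7:79273016-79273265 on the plus strand, in 3980 bp.
Nfs1: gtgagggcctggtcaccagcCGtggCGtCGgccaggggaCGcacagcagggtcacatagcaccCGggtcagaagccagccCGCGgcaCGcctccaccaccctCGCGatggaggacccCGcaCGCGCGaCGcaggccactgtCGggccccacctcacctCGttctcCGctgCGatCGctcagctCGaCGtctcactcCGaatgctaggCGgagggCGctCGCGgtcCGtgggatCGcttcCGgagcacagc
Myl6: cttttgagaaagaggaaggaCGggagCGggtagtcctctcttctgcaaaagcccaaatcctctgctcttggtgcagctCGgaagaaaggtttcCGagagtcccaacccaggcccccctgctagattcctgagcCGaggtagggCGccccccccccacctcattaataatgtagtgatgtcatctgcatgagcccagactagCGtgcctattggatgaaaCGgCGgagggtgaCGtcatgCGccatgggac
Rpl31: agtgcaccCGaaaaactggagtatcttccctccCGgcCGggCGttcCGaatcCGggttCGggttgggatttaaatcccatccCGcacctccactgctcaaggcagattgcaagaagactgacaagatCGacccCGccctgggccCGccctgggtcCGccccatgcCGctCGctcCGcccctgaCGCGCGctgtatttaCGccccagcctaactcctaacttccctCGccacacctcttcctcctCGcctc
Lpcat2: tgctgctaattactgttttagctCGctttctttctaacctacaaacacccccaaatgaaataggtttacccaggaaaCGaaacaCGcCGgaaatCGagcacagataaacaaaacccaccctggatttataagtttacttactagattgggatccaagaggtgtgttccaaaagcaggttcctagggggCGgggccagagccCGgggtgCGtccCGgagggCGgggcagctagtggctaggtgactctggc
Rtn1: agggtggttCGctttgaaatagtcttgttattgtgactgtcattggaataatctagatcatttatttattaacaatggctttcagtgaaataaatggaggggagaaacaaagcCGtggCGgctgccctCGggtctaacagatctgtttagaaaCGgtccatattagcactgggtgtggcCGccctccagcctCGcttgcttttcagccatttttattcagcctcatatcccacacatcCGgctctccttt
Abhd2: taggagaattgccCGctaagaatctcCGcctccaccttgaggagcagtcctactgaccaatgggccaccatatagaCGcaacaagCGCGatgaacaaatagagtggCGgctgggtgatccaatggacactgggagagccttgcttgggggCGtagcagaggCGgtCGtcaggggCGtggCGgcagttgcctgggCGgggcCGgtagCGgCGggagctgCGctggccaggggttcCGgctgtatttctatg
The promoter of Nfs1 was the richest of the 6, with 30 CpG and 70.8% G+C, and that of Rtn1 the poorest, with 8 CpG and 45.2% G+C. Rpl31 had 21 CpG, Abhd2 17, Myl6 11 and Lpcat2 10. The ratio of observed to expected CpG ran from 0.965 at Nfs1 and 0.936 at Rpl31 to 0.546 at Myl6. Wide regions thus took in promoters with very different CpG content.

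Most wide regions were only just wide, and their scores spread over a wide range. Quartiles of width were 2130 and 2690 bp around a median of 2340 bp. Of the 2106 members, 775 (36.8%) reached 2500 bp, 312 (14.8%) reached 3000 bp, 67 reached 4000 bp, 25 reached 5000 bp and 5 exceeded 10 kb. The score, a whole number given by the authors whose meaning the sources do not state, had a median of 1091.5 and quartiles of 858.5 and 1372. It ran from 332 to 4990, with 47 members under 500 and 132 (6.27%) at 2000 or more.

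At the edge of the rule, 44 members measured exactly 2000 bp, with a median score of 1083.5, and 37 regions that met every other condition measured 1990 bp, with a median score of 975. At the score limit, 9 members scored 4500 or more, the highest at 4990, and 9 autosomal wide regions left out scored less than 500 above the limit. In all 2326 regions were wide, of which 32 lay on X or Y, 170 autosomal ones scored 5000 or more, 16 others lay in Hox clusters and 2 in the chromosome 4 segment.

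Score and width moved together over the whole list and less within a narrow range of widths. The median score was 1035 in the narrowest class of wide regions, from 2000 bp, and 1200 at 3000 to under 4000 bp, against 141 in regions of 100 to under 200 bp and 978 in those of 1500 to under 2000 bp. Spearman's rho of width with score was 0.151 over the members, against 0.134 over regions of 1000 to under 2000 bp and 0.802 over all autosomal regions. These are correlations across regions of the same pooled libraries, which share depth and capture design and are not independent replicates.

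**Figure D1:**
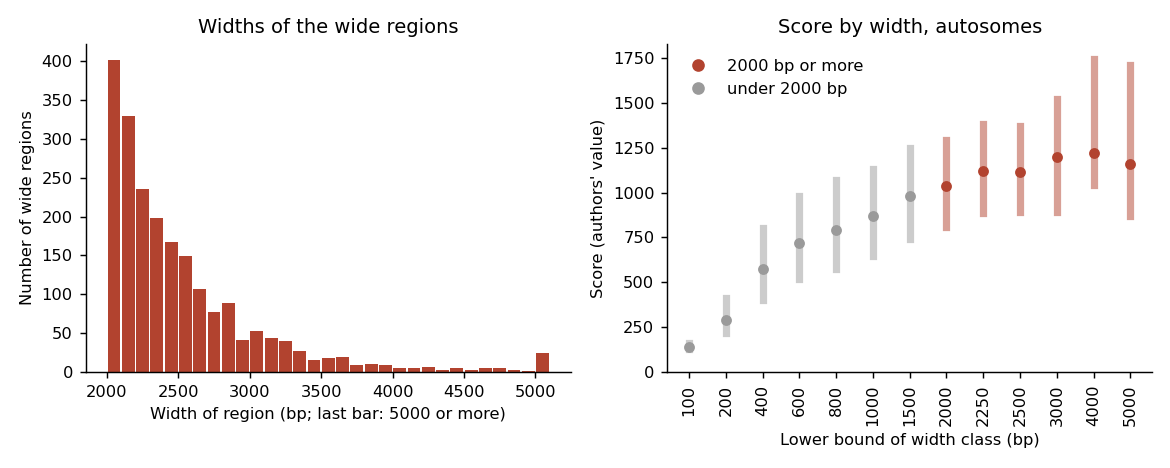
Left, the number of wide regions by width in steps of 100 bp, with the 25 regions of 5000 bp or more in the last bar; right, the median score (points) and quartiles (bars) by width class, for autosomal regions under the same exclusions. The median climbed steeply up to about the 1000 bp class (867) and lay between 1035 and 1220 in every class from 2000 bp on.

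Wide regions lay at gene ends more often than narrower ones. A gene end was taken as the 1000 bp to each side of the first or last base of a protein-coding gene, and any shared base placed a region there. By this measure 1072 wide regions, or 50.9% (95% Wilson interval 48.8 to 53.0), were at a gene end, against 32.9% (32.2 to 33.6) of the 18120 regions of 1000 to under 2000 bp, 13.8% of the 88865 regions of 400 to 800 bp, and 15.3% of all autosomal regions. A further 638 wide regions (30.3%) lay inside a gene body only, against 38.4% and 45.6% of the narrower classes. Between protein-coding genes lay 396 wide regions (18.8%), against 28.7% and 40.6%.

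A wide region can touch a window more easily than a narrow one, so the midpoint was placed as well. The midpoint of 29.4% of wide regions (27.5 to 31.4) was at a gene end, against 23.4% (22.8 to 24.0) of regions of 1000 to under 2000 bp, 11.5% of those of 400 to 800 bp and 12.6% of all autosomal regions. The order of the width classes was the same by both measures, and the distance between wide regions and the next class was smaller by midpoint. Intervals cover counting error only, and neighbouring regions are not independent.

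**Figure D2:**
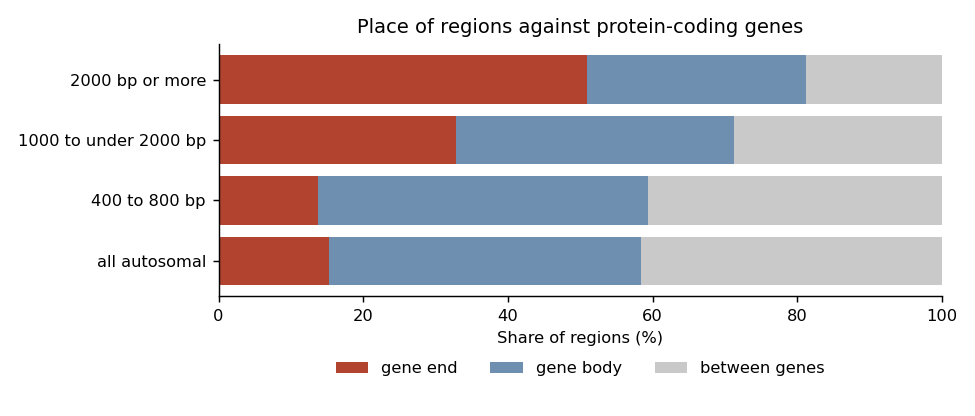
Share of regions (percent, horizontal axis) at a protein-coding gene end (within 1000 bp), in a gene body only, or between genes, for wide regions, the 2 narrower width classes and all autosomal regions. The share at gene ends was 50.9% for wide regions, against 32.9% and 13.8% in the narrower classes and 15.3% of all autosomal regions.

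More of the wide regions lay at 5′ ends than at 3′ ends. Strand was known for 16457 genes, 81.7% of the protein-coding genes on the autosomes other than chromosome 18, which had no promoter entry and was left out of counts by strand. Of the 2046 wide regions there, 785 (38.4%) lay within 1000 bp of a 5′ end, against 24.5% of regions of 1000 to under 2000 bp and 8.59% of those of 400 to 800 bp. For 3′ ends the shares were 12.3%, 5.56% and 3.39%, in the same order of classes. By midpoint, 21.3% of wide regions lay at a 5′ end and 6.21% at a 3′ end, against 17.4% and 3.41% in the class of 1000 to under 2000 bp. Wide regions near both a 5′ and a 3′ end made up 7.28%, against 2.10% in that class.

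Wide regions that held a gene start reached further into the gene than away from it. An annotated start lay inside 560 wide regions (27.4%), against 13.4% and 2.45% of the narrower classes, and a wider region holds a start more easily. In 473 of the 560 the start or starts belonged to 1 gene. Where several starts of that gene lay inside, the most upstream one was used, a choice that lengthens the downstream stretch. These 473 regions extended a median of 927 bp upstream of the start (quartiles 557 and 1419) and 1458 bp downstream of it (1012 and 1897). In 317 of the 473 (67.0%) the downstream stretch was the longer, against 57.7% in regions of 1000 to under 2000 bp and 36.1% in those of 400 to 800 bp. The other 87 held starts of more than 1 gene, and in 84 of them the genes ran on opposite strands, as at Nfs1 and Romo1.

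The downstream shift also appeared in the distance from each midpoint to the nearest start. Within 5 kb of a start lay 53.6% of wide midpoints, with 785 downstream and 311 upstream. In the class of 1000 to under 2000 bp 38.5% were within that distance, with 4165 downstream and 2555 upstream, and in that of 400 to 800 bp 19.5%, with 8718 downstream and 8058 upstream. All 3 classes thus had more midpoints downstream, by differing margins. The median distance was 3480.5 bp for wide regions, against 13652 bp and 29947 bp. The step with most wide midpoints was the first 500 bp downstream, with 9.43%, and the step of 1500 to 2000 bp downstream held 7.33%, more than the 5.33% of the step before it.

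**Figure D3:**
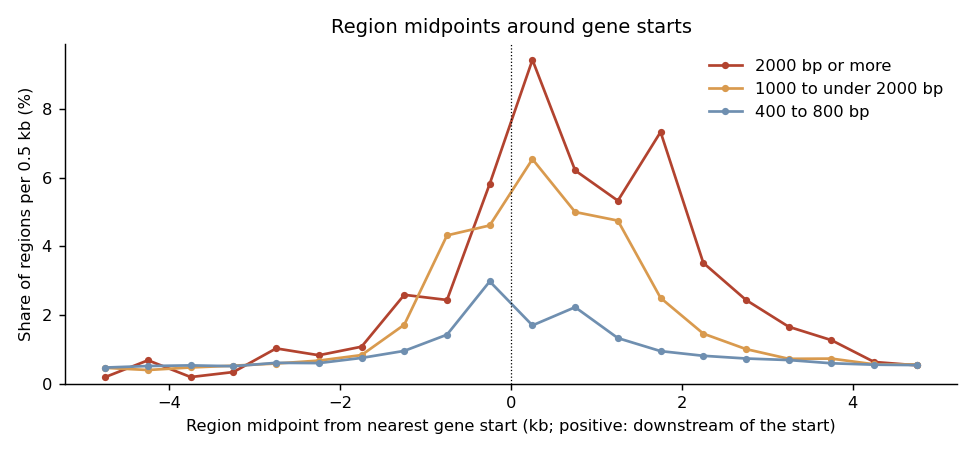
Share of region midpoints (percent per 0.5 kb) by distance in kb from the nearest annotated gene start, with positive values downstream of the start, for 3 width classes. More midpoints lie within 5 kb downstream than upstream in each class: 785 and 311 for wide regions, 4165 and 2555 for regions of 1000 to under 2000 bp, and 8718 and 8058 for those of 400 to 800 bp.

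Promoters inside wide regions were moderately CpG-rich. CpG were counted in a window of 300 bases, 250 before and 50 after the start. The 654 promoters (589 genes) that lay wholly inside a wide region held a median of 17 CpG (quartiles 11 and 22). Of them 80.3% held 10 or more. That share was 73.3% inside regions of 1000 to under 2000 bp, 61.8% inside those of 400 to 800 bp and 57.9% over all promoters. The 2394 promoters inside regions of 1000 to under 2000 bp held a median of 15, the 1324 inside regions of 400 to 800 bp 12, the 8086 that touched no region 4, and all 20085 promoters 14. The ratio of observed to expected CpG had a median of 0.738 in wide regions, against 0.680, 0.561, 0.242 and 0.586 in the same order. G+C content differed less, at 56.8% in wide regions and 57.0% over all promoters.

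The share of promoters inside wide regions was highest at middle CpG counts and lowest at the top, an order that the narrower classes shared. Of 4183 promoters with 10 to 19 CpG, 6.48% were inside a wide region and 11.9% touched no region. Of 8451 promoters with fewer than 10 CpG, 1.53% were inside a wide region and 68.0% touched none. Of 1066 promoters with 40 or more CpG, 1 was inside a wide region (0.0938%), and 67.4% touched none. For regions of 1000 to under 2000 bp the shares of these promoters were 23.9% at 10 to 19 CpG, 7.56% below 10 and 0.750% at 40 or more, and for regions of 400 to 800 bp 12.4%, 5.99% and 0.0938%. Both the CpG-poorest and the CpG-richest promoters were therefore mostly outside the list.

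**Figure D4:**
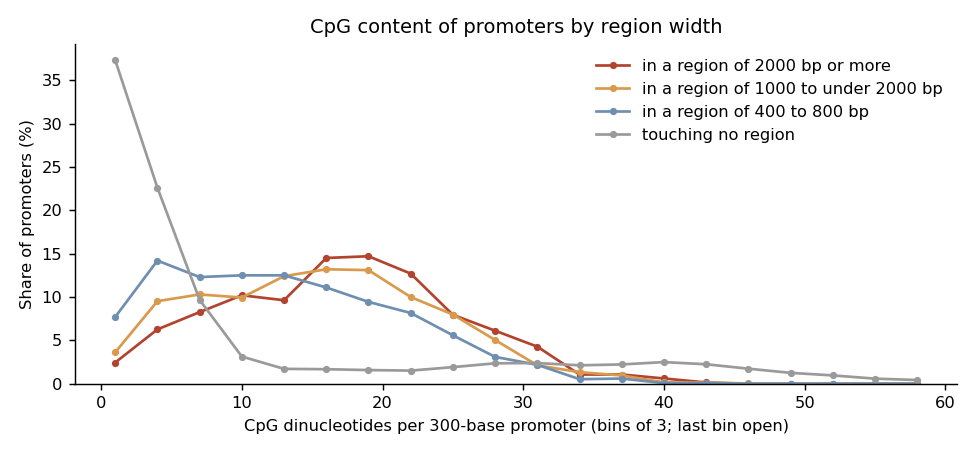
Share of promoters (percent) by number of CpG in the 300-base window, in bins of 3, for promoters inside wide regions, inside the 2 narrower classes, and touching no region. Promoters inside wide regions have a median of 17 CpG, and those touching no region are mostly CpG-poor (median 4) with a second, low rise above 30.

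Short promoter motifs were counted on both strands as letters in the same 300 bases. The GC box, GGGCGG or CCGCCC, the core of sites for SP and KLF zinc finger factors, was present in 53.1% (49.2 to 56.9) of promoters inside wide regions, against 48.3% inside regions of 1000 to under 2000 bp and 47.0% of all promoters. CCAAT or ATTGG, the box bound by NF-Y, was in 47.9%, against 46.2% and 38.1%. CGCG was in 61.9%, against 58.9% and 50.3%. TATAAA or TTTATA was in 10.6%, against 8.81% and 12.7%. The cAMP response element core TGACGTCA was in 4.43% (3.10 to 6.30), against 3.26% and 2.30%. GGGCGG and CGCG each contain a CpG and CGCG can overlap CCGCCC, so these shares move with CpG content. A match is a description of letters and not of binding.

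Over genes, 1909 of 20665 autosomal protein-coding genes (9.24%) had a wide region in the gene or within 1000 bp of it, and 1339 (6.48%) had one at an end. Of the 1909, 1736 had 1 wide region, 154 had 2 and 19 had 3 or more. A start lay inside a wide region for 649 genes, and 202 genes had 50% or more of their span in wide regions. Whole genes fitted into a wide region in 61 cases. The longest of these was Rasl11b, a RAS-like small GTPase gene of 4152 bp inside a region of 4720 bp with a score of 1187. Others among the longest 24 were Atoh1, a neural bHLH factor, Ubb, a polyubiquitin gene, Mt1, a metallothionein that binds metal ions, Gpx1, a glutathione peroxidase, and Id1, an inhibitor of bHLH factors. These 5 were picked from that list after its values were seen.

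Some genes carried several wide regions. Nfia, a nuclear factor I gene needed for the start of astrocyte formation, had 5, all inside its gene body of 540811 bp, the widest at chr4:97772681-97775520 with a score of 1165. Lmo4, a LIM-domain cofactor of transcription, had 4 that covered 65.2% of its 16726 bp, with scores from 1205 to 1831. Angpt1, a ligand of the Tie2 receptor in blood vessels, and Foxp1, a forkhead repressor, also had 4 each. Hjurp, the chaperone that loads the centromeric histone CENP-A, and Tns3, a tensin of focal adhesions, had 3 each. Sipa1l1, a GTPase-activating protein of synapses, and Prdm1, a repressor of transcription that acts in lymphocyte and germ cell differentiation, also had 3 each. The genes with several wide regions were of very different length, so the number per gene does not measure density.

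Ribosomal protein genes stood out among the gene groups. Their products form the large and small subunits of the ribosome and are made in every cell. Of 85 autosomal genes with a ribosomal protein symbol, 36 (42.4%, exact interval 31.7 to 53.6) had a wide region in or near the gene, against 9.24% of all genes, and 35 (41.2%) had it at an end. Rpl3 had the widest, 4470 bp at chr15:80079591-80084060 with a score of 1881, and Rpl31 and Rps23 had 4320 and 3630 bp and scores of 1292 and 1006. The widest region of each of the 36 genes scored between 471 (Rplp0) and 1881 (Rpl3). These genes are short, with a median span of 3230 bp against 17491 bp over all genes, so that a wide region covers more of each. Ribosomal protein genes have many near-identical processed copies, and the sources do not say how reads with several matches were treated.

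Clustered histone genes, which encode the replication-dependent core and linker histones, had wide regions for 29 of 63 genes (46.0%, exact interval 33.4 to 59.1). These 29 genes shared 16 regions, 24 of the genes on chromosome 13 and 5 on chromosome 3, and 24 of the genes lay wholly inside a region. The interval treats genes as independent, which genes that share a region are not. H4c9, H2ac11 and H2bc11 shared 1 region of 3830 bp with a score of 1542, and H2bc13, which lies beside H2ac13 and H3c10, had one of 3660 bp with a score of 1881. The 16 regions had a median score of 1485.5, against 1075.5 over all wide regions at or in protein-coding genes. Histone genes span a median of 492 bp and are close copies of each other, so assignment of reads among them is uncertain.

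Of 15 genes commonly used as housekeeping references, 9 (60.0%, exact interval 32.3 to 83.7) had a wide region, and 2 of the 9 are ribosomal protein genes. It lay at an end for 8 of the 15 (53.3%), and by midpoint for 26.7%. Gapdh, a glycolytic enzyme, had 2 wide regions that covered 80.1% of the gene, the wider of 4750 bp with a score of 1090. Rpl13a (2970 bp), Polr2a, the catalytic core of RNA polymerase II (2790 bp), and Tbp, the TATA-binding protein (2750 bp), came next, with scores of 1431, 893 and 1092.

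The developmental transcription factors set the course of embryonic tissues, and many are silent in differentiated cells and marked by Polycomb. Of 247 such genes in 8 lists, 49 (19.8%, exact interval 15.1 to 25.4) had a wide region in or near the gene, against 9.24% of all genes, and 30 (12.1%) had one at an end, against 6.48%. By midpoint the share at an end was 4.86%, against 3.72% of all genes. The 59 wide regions of these genes had a median score of 923. The groups were of unequal share: 6 of 15 GATA, GLI and ZIC genes, 5 of 16 T-box genes, 4 of 18 Sox genes, 2 of 9 Pax genes, 7 of 39 forkhead genes, 18 of 102 homeobox genes outside the Hox clusters, 6 of 35 neural bHLH genes and 1 of 13 POU genes. With groups this small their exact intervals overlap.

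The start listed in the promoter table lay inside a wide region for 7 of these 49 genes, against 649 of the 1909 genes with a wide region, although not every gene has a start in that table. Hand2, a bHLH factor of heart and limb, had the widest, 4730 bp at chr8:57325091-57329820 with a score of 1217. Isl2, a LIM homeobox factor of motor neurons, had 4050 bp (943), and Six2, a factor of kidney progenitors, 3880 bp (886). Foxb2 had 3250 bp with a score of 876 and Tbx3, which had 2 wide regions, 3200 bp with a score of 821. Pax9, a factor of tooth and thymus, had 3140 bp with a score of 1263 and was 1 of the few with its start inside. Eomes, the T-box factor of intermediate neural progenitors, was another, with 2900 bp and a score of 1338. Gata2 and Gata4, zinc finger factors of blood and heart, had 2540 and 2190 bp, with scores of 1147 and 1415.

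Signalling and nuclear receptor genes contributed some of the widest regions. Of 31 nuclear receptors 8 (25.8%, exact interval 11.9 to 44.6) had a wide region in or near the gene, against 9.24% of all genes. Only 3 (9.68%) had one at an end, against 6.48% of all genes. The nuclear receptor genes are long, with a median span of 53870 bp against 17491 bp over all genes. Thra, a thyroid hormone receptor, and Nr1d1, the clock repressor REV-ERB alpha, share 1 region of 4940 bp at chr11:98768931-98773870 with a score of 1185. Of 25 genes of receptor tyrosine kinases and of RAS and PI3K signalling, 6 (24.0%, 9.36 to 45.1) had one, all at an end. Spry2, an inhibitor of RAS signalling, had 2790 bp (score 1040) and Pdgfc, a platelet-derived growth factor, 2180 bp (score 1578) with its start inside. Of 30 BMP, hedgehog and FGF genes 3 had one (10.0%), led by Fgfr2, and of 28 Wnt genes 2 had one (7.14%), Sfrp4 and Wnt5b, both near the share of all genes.

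The other groups lay on both sides of the 9.24% of all genes. Close to it were solute carrier genes with 40 of 358 (11.2%), potassium and sodium channel genes with 3 of 29 (10.3%), imprinted genes with 2 of 25 (Grb10 and Impact) and collagen genes with 3 of 42 (7.14%). Tumour suppressor genes had 5 of 24 (20.8%, with an exact interval of 7.13 to 42.2 that takes in the share of all genes), among them Dapk1 (2790 bp), Brca1 (2670 bp, start inside), Cic (2140 bp) and Nf1 (2100 bp). The 21 of 57 clustered protocadherins with a wide region, adhesion genes with overlapping transcripts, shared 3 regions on chromosome 18. Cytochrome P450 genes were lower, with 2 of 99 (2.02%, exact interval 0.246 to 7.11). Keratin genes had 1 of 53, interleukin and receptor genes 3 of 78 and ADAM and ADAMTS genes 2 of 53, with intervals that take in 9.24%. Of 16 stem and progenitor genes 3 had one, including Mycn (3160 bp) and Myc (2120 bp). None of 1100 olfactory receptor genes had a wide region, which allows a share of up to 0.335% (exact upper bound), and none of 352 vomeronasal receptor genes had one (up to 1.04%). Of these chemoreceptor genes, 160 olfactory and 19 vomeronasal ones had a region of any width at an end.

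The numbered Zfp genes, a family that includes many zinc finger repressors of transposable elements, stood differently in the width classes. Only 21 of 386 (5.44%, exact interval 3.40 to 8.20) had a wide region in or near the gene, against 9.24% of all genes. At an end the share was 4.4%, against 6.48% of all genes, and by midpoint it was 3.37%, against 3.72%. A region of 1000 to under 2000 bp lay at an end of 43.8% of them, against 30.1% of all genes. Ribosomal protein genes were high in both classes, with 61.2% in the narrower one.

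Cell type marker lists gave small counts. Astrocyte markers had wide regions for 3 of 18 genes, Nfia, Vim (2180 bp, score 1123) and Sox9 (2150 bp, score 996), and neuron markers for 3 of 18, Eomes, Slc17a7 and Slc32a1. Of 15 microglia and immune markers only Ptprc had one, and of 15 mesenchymal markers Snai2 and Vim. Of 12 endothelial and mural markers only Erg had one. None of 15 oligodendrocyte markers and none of 15 germline genes had one, with an exact upper bound of 21.8% each. The intervals of these lists all take in the 9.24% of all genes.

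**Figure D5:**
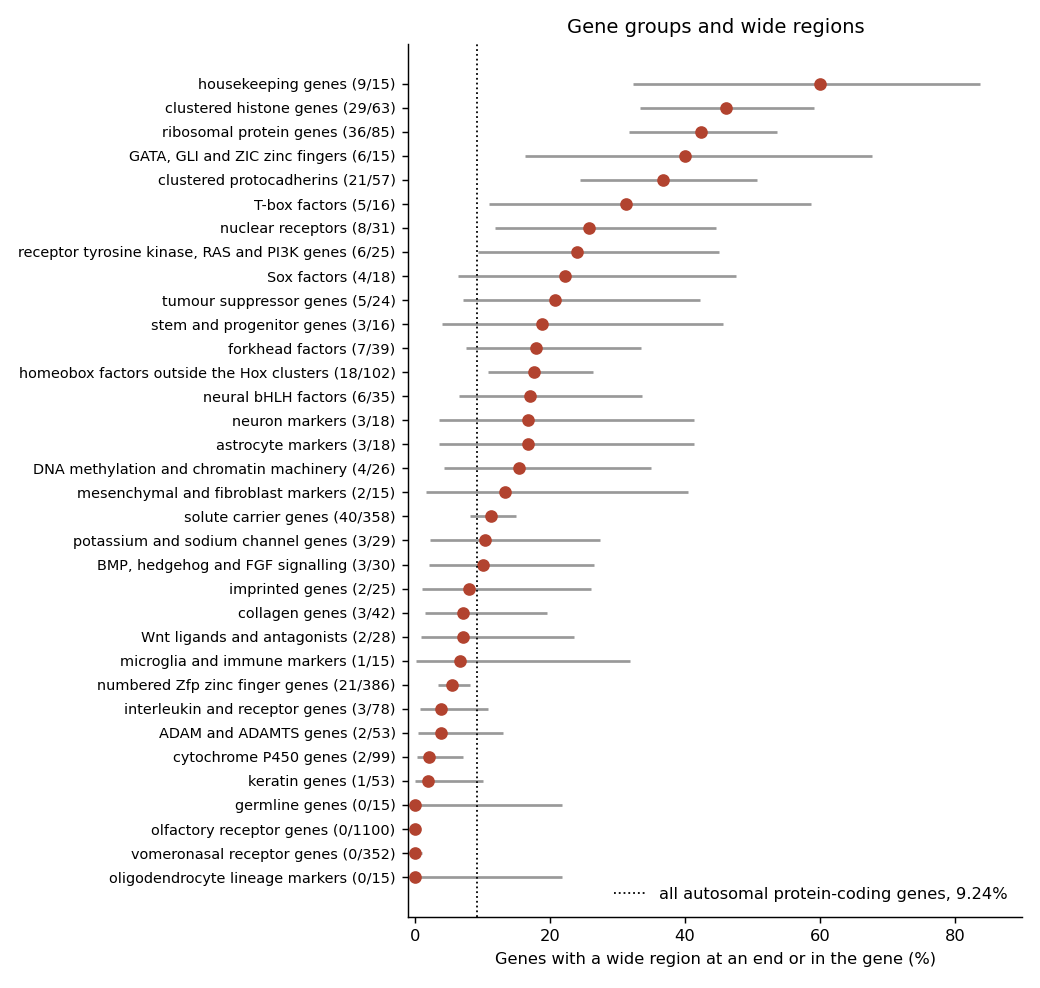
Share of the genes of each list or family (percent) with a wide region in the gene or within 1000 bp, with exact 95% intervals as bars, for groups of 15 or more genes; the dotted line marks the 9.24% of all autosomal protein-coding genes. Housekeeping, histone and ribosomal protein genes are at the top with 60.0%, 46.0% and 42.4%, and olfactory and vomeronasal receptor genes at 0. The bars treat genes as independent, although some genes, such as clustered histone and protocadherin genes, share regions.

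A set of 14 single genes tied to the study or to glioma was looked up one by one. It does not hold every such gene. Outside the set, Egfr (2120 bp, score 1440) and Braf (2050 bp, score 756) had wide regions, as did Nf1 and Cic, given above. Among the autosomal genes of the set only Idh1 had a wide region, a share near the 9.24% of all genes. Nothing particular to these genes is read from that share. Idh1, the gene of the cytosolic isocitrate dehydrogenase whose mutant form in glioma makes 2-hydroxyglutarate, had 1 wide region of 2280 bp at chr1:65176821-65179100, inside the gene, with a score of 1715. Idh2, its mitochondrial counterpart, had no wide region among 5, and its widest measured 1320 bp with a score of 491. Of the floxed genes, Cdkn2a had 5 regions up to 1140 bp. Atrx lies on X, outside the rule, and its widest region measured 800 bp. Pdgfa had 11 regions up to 1500 bp and Pdgfra, its receptor, 15 up to 850 bp. Olig2, Gfap and Sox2, markers of glial and neural stem cells, had widest regions of 1300, 950 and 690 bp, and Trp53, Tet1, Dnmt3a and Mgmt ones of 1390, 1270, 1160 and 1610 bp. Of 26 genes of DNA methylation and chromatin control 4 had a wide region (15.4%, with an exact interval of 4.36 to 34.9 that takes in the 9.24% of all genes). Besides Idh1 these were Tet3, an enzyme that oxidizes methylcytosine (2840 bp, score 875), Kdm6b, a histone demethylase with 2 regions, the wider of 2550 bp (score 660), and Dnmt3b, a de novo DNA methyltransferase (2310 bp, score 926). Of 14 genes linked to the human glioma methylator phenotype, Rhof, Tnfrsf1a and Ptprc had one (21.4%, 4.66 to 50.8, which also takes in that share).

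The 8 widest regions over protein-coding genes lay at genes of different function. Cry2, a repressor of the circadian clock, had 6220 bp at chr2:92427751-92433970 with a score of 895. Fgfr2, a fibroblast growth factor receptor, had 6060 bp with a score of 993, and Fzd5, a Wnt receptor, 5840 bp with a score of 906. Enc1, a kelch protein of neurons, had 5810 bp (1212), Esrp2, an epithelial splicing regulator, 5800 bp (1360), and Ptger4, a prostaglandin E2 receptor, 5780 bp (1033). Slc38a2, an amino acid transporter, had 5700 bp (1711), and Dusp1, a phosphatase that inactivates MAP kinases, 5680 bp (2265). Of these 8 regions only that of Ptger4 was further than 1000 bp from a gene end.

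The widest members of all lay outside protein-coding genes, and several near the first bases of a chromosome assembly. The widest spanned 16470 bp at chr9:3056191-3072660 with a score of 500, in a run of 6 members within 39.1 kb. Others of this kind lay at chr4:3058411-3070000 (11590 bp, score 1952), chr16:3231571-3241600 (10030 bp, 3597) and chr17:3024261-3034180 (9920 bp, 827). In all, 28 members on 9 chromosomes started below 3.3 Mb, or 1.33% (0.921 to 1.91), against 0.254% of regions of 1000 to under 2000 bp. Mouse chromosomes have their centromere at this end, and the assembly there borders on satellite repeats. Their median score was 684.5 at a median width of 3350 bp. Of the 43 autosomal wide regions below 3.3 Mb 15 scored 5000 or more.

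The rule left out 170 autosomal wide regions that scored 5000 or more, so the highest member scores lie just under that limit. Where the highest scores of the whole list lie is not read from them. Among the 8 members with the highest scores, 5 lay on chromosome 8 between positions 19679271 and 20663310, led by chr8:20284041-20286490 with 4990 and chr8:19976151-19983000 with 4966. The 8 lowest scores were 332 at Slc26a6, an anion exchanger, 333 at Lemd1 and the microRNA gene Mir135b, 333 at Lhx6, a factor of cortical interneurons, 350 at B3gnt3, 376 at the myoglobin gene Mb, 377 and 381 at the start of chromosome 3, and 390 at Tnfaip8l1.

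Wide regions took in small non-coding RNA genes more often than narrower ones. Products of many snoRNA genes, though not of all, guide the modification of ribosomal RNA, and the genes usually lie in an intron of a host gene. A snoRNA gene was overlapped by 36 wide regions (1.71%, 1.24 to 2.36). The share was 0.265% for regions of 1000 to under 2000 bp and 0.215% for those of 400 to 800 bp. Of the 36, 10 were the widest region of a ribosomal protein gene and 8 lay in Snhg14. A tRNA gene was overlapped by 26 wide regions (1.23%, 0.844 to 1.80), against 0.419% and 0.0563%, with 12 on chromosome 13 and 5 on chromosome 11. A miRNA gene was overlapped by 13 (0.617%, 0.361 to 1.05), against 0.309% and 0.0585%, among them a region of 2690 bp with the cluster Mir25, Mir93 and Mir106b and one of 2970 bp with Mirlet7i. A wider region overlaps more genes of any kind, and a midpoint count was not made for these small genes. Pseudogenes showed no such order, with 1.99% of wide regions against 2.91% and 2.30%.

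Snhg14, the long imprinted transcript that hosts snoRNA clusters in the region of the Prader-Willi and Angelman syndromes in humans, held 8 wide regions on chromosome 7. The widest spanned 12810 bp at chr7:59703731-59716540 with a score of 3236, and the 8 scores ran from 1640 to 3448 with a median of 2854.5. The snoRNA clusters there consist of many similar copies. Neat1, the RNA scaffold of nuclear paraspeckles, was overlapped by a region of 8340 bp at chr19:5841411-5849750 with a score of 988. Its neighbour Malat1 had one of 2100 bp with a score of 1398. Peg13, a non-coding imprinted gene, had one of 4580 bp with a score of 1166. No gene of any annotated kind was overlapped by 234 wide regions (11.1%), against 22.6% of regions of 1000 to under 2000 bp and 34.6% of those of 400 to 800 bp. A wider region overlaps some gene more easily, and no midpoint count was made for this share.

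Wide regions had close neighbours in the list, and so did regions of 1000 to under 2000 bp. The nearest other region was a median of 490 bp away (quartiles 210 and 1440), against 640 bp and 1470 bp in the narrower classes and 1250 bp over all autosomal regions. A gap of at most 100 bp separated 184 wide regions (8.74%) from the next region, against 7.51% of those of 1000 to under 2000 bp. Within 10 kb of the midpoint lay a median of 4 other midpoints in both of these classes, with quartiles of 3 and 7 for wide regions. The quartiles were 2 and 6 in the narrower class, and the median over all autosomal regions was 3. Linked at distances of up to 10 kb, 1828 wide regions stood alone, 102 groups held 2, and 21 groups held 3 or more. Apart from the chromosome starts and Snhg14, these groups included Lmo4 with 4 regions, Tbx3, Hlx, Paqr9, Irf2bp2, Zfp36l2 and Bahcc1 with 3 each, and histone loci on chromosome 13.

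Wide regions were spread over all autosomes at unequal density. Chromosome 11 had most, 203 or 1.71 per Mb, and chromosome 14 was lowest with 0.583 per Mb. As a share of all regions of each chromosome, wide ones made up from 1.43% on chromosome 15 to 0.648% on chromosome 4. All regions here include those that the rule leaves out, such as the segment of chromosome 4, which lowers the share. The median score of wide regions was highest on chromosome 13 (1285), where histone and tRNA clusters lie, and lowest on chromosome 12 (971). The share at a gene end ran from 63.1% on chromosome 11 to 40.8% on chromosome 14.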

How the data were processed

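Genomic DNA of 8 mouse cell lines was captured for methylation sequencing, per the labels' protocols. The submitters' processing notes name Novoalign 3.7.1, Picard and the build mm10. How the regions were called is not given in the sources. The authors deposited 1 list of 220894 regions, whose track line gives the narrowPeak type, per the file headers. The score is a whole number of at least 100, deposited by the authors as 1 value per region for the whole series. Coordinates lie on a grid of 10 bp and are printed counting from 1. Depth per line is unknown.

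Members and gene lists were chosen with earlier results of these data known. Regions were placed against RefSeq genes of GRCm38.p6 with Python 3.11.15, pandas 2.3.3, numpy 2.4.6 and scipy 1.17.1, tested on simulated data. For shares of regions and promoters the 95% interval is Wilson's and for shares of genes it is the exact one of Clopper and Pearson. Both cover counting error only. No test between lines or groups was possible. Of 615 genes on 26 lists, 600 were autosomal and protein-coding; 12 families were defined by symbol and adjusted after the files were seen. Named by rule were the 15 widest members and the 15 widest that overlap a protein-coding gene, the 8 highest and 8 lowest scores, the 8 genes with most members, up to 4 genes per list and 14 single genes, without predicted symbols (Gm, Rik, LOC). Some genes that the rule names are not reported here. The small RNA, long non-coding and fully covered genes were named after their values were seen. Alternatives were other width limits, score limits, gap joining, windows, midpoints and gene sets.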

Additional observations from a re-analysis of the deposited data

How the results depend on the processing

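No paired analysis was possible because the list holds 1 pooled value per region and no value of a line. The number of wide regions was 6107 at a limit of 1500 bp and 312 at 3000 bp. Their median score was 1012 at 1500 bp, 1197.5 at 3000 bp, 1066 with gaps of at most 100 bp joined, 1125 with no upper limit on the score and 1061 with scores under 2000. The share at a gene end was 45.1% at 1500 bp, 42.5% with a window of 500 bp, 59.0% with 2000 bp, 29.4% by midpoint and 61.1% with all annotated genes. Genes with a wide region at an end numbered 3237 at 1500 bp, 218 at 3000 bp and 769 by midpoint. The other 17 values were numbers of 1974 to 2627, a median score of 1091, shares at a gene end of 48.8% to 52.0% and 1123 to 1910 genes with a wide region at an end. Alternatives for gene groups were chosen after the data were seen. At limits of 1500 and 3000 bp and by midpoint, ribosomal protein genes had shares at an end of 65.9%, 10.6% and 32.9%, histone genes 71.4%, 20.6% and 39.7%, housekeeping genes 66.7%, 6.67% and 26.7%, developmental factors 23.5%, 2.83% and 4.86%, Zfp genes 19.2%, 0.0% and 3.37%, and all genes 15.7%, 1.05% and 3.72%. The share of Zfp genes at an end was thus above that of all genes at 1500 bp and below it at 2000 and 3000 bp. By midpoint the shares were close, no interval was made for the share at an end, and the change of order was not tested. With counts per line and a target list absent from this work, capture design and depth could not be told apart.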
